A study of Mus musculus with 6 samples.

Results

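The transcription factors described here are 10 genes that direct the keratinocyte, the main cell of the epidermis, through its life from the basal layer to the surface: Trp63, Grhl1, Grhl2, Grhl3, Klf4, Klf5, Cebpa, Cebpb, Gata3 and Ovol1. They were chosen by name, with every probe that the array design assigns to them. A probe was found for 9 of the 10, 18 probes in all, among 27573 gene names on the array, and all 9 were tested with 16494 genes in all. No probe carried the name Grhl3 or its older name Get1, so the expression of Grhl3 is not analysed here.

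The cultures were wild-type primary keratinocytes, isolated together with hair follicle buds from the epidermis of newborn mice. All 6 were transduced with the v-ras-Ha oncogene, carried by an adenovirus at 10 viral particles per cell, so the PBS cultures carry the oncogene too. The 3 Anakinra cultures received Anakinra, a recombinant antagonist of the receptor for interleukin-1 (IL-1), at 5 ug/ml from 5 hours after transduction, renewed after 2 days, and the 3 PBS cultures received the buffer. RNA was taken after 3 more days and read on 1 Agilent one-colour array per culture. The labels do not say whether the replicates came from separate animals, so p-values rest on the spread between these 3 cultures a group, which may be technical. In RNA from a whole culture, fewer cells of a type and less RNA per cell cannot be told apart.

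As background, p63, the product of Trp63, is required for a stratified epidermis to form and keeps basal cells in their state. Keratinocytes that leave the basal layer switch on further factors in sequence: C/EBP alpha and beta with the first suprabasal keratins, then the zinc finger factor Klf4 and the grainyhead-like factors with the cornified barrier, while Klf5 is best known from the dividing basal cells. Ovol1, a zinc finger repressor, restrains the growth of cells that start to differentiate, and Gata3 acts in the hair follicle and in the lipids of the barrier. IL-1 is a signal that keratinocytes both make and receive, and it acts through the transcription factor NF-kB. The comparison asks what changes in keratinocytes expressing the oncogene when the IL-1 receptor is blocked.

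One array stood apart in its signals, and the Anakinra arrays correlated less with each other than the PBS arrays did. On Anakinra 2, 86.3% of probes were well above background and the median processed signal was 137.9, while the other Anakinra arrays had 55.2% and 55.7% with medians of 73.3 and 53.6, and the PBS arrays 62.0% to 70.6% with medians of 49.0 to 73.2. Anakinra 2 correlated with Anakinra 1 at 0.957 and with Anakinra 3 at 0.974, against 0.983 between those and 0.995 to 0.997 within PBS. With the PBS arrays it correlated at 0.976 to 0.985, and arrays of different groups correlated at 0.976 to 0.988. The lowest array weights from limma were 0.338 for Anakinra 2 and 0.398 for Anakinra 3. Anakinra 1 had 0.9999 and the PBS arrays 1.15 to 2.97. The 75th percentile of processed signals, to which levels are scaled, was 1002 to 1087 in Anakinra and 863.6 to 1006 in PBS. Without Anakinra 2 the test called 0 of the factors in either direction, as it did with all arrays.

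None of the 9 measured factors passed the test between Anakinra and PBS cultures. In the limma fit across all genes, 0 of 9 were higher and 0 of 9 were lower at an adjusted p under 0.05, where 0.970% of all genes tested were called higher and 0.800% lower. One factor, Ovol1, had an unadjusted p under 0.05, as did 16.1% of all genes. The log2 changes, Anakinra minus PBS, ran from -0.11 for Trp63 to 0.30 for Gata3, with 6 positive and 3 negative. Their median was 0.04, against 0.01 over all genes. The Anakinra and PBS values did not overlap for 2 of the 9, Grhl1 and Ovol1, both higher in Anakinra, where 12.5% of all genes lay entirely higher and 13.8% entirely lower. At this sample size a missed threshold does not show that a factor's level was the same, and the intervals given with each factor say how large a difference the data allow.

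All 18 probes were well above background on all 6 arrays, and none was saturated, carried an outlier flag or held a replaced value. Levels are given on a log2 scale on which 0 is the 75th percentile of the processed signals on that array. A level may be compared between arrays for 1 probe but not between probes. Across the 18 probes, fitted among 25012 probes, 0 were called, where 1.11% of all probes were. The Anakinra values lay entirely above the PBS values for 5 of the 18 and entirely below for 1, against 12.3% of all probes above and 12.3% below. An unadjusted p under 0.05 was found for 5 of the 18, and for 14.2% of all probes. Of the 7 factors with several probes, 6 had probes that shared 1 sign, and Trp63 did not.

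**Figure D1:**
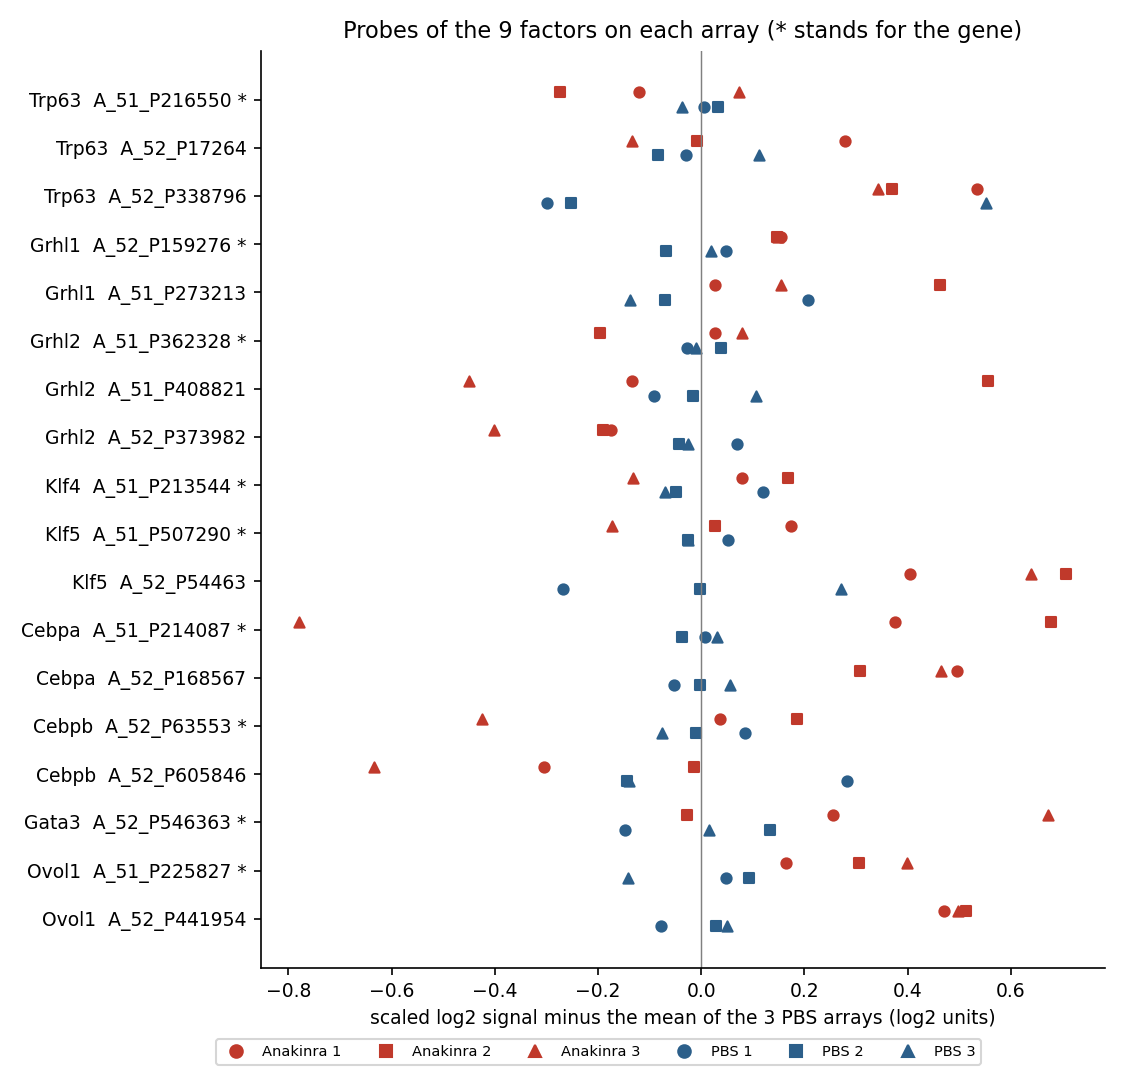
Level of each of the 18 probes on each array, as the difference of the scaled log2 signal from the mean of the 3 PBS arrays. Red marks are Anakinra cultures, blue marks PBS cultures, the shape gives the replicate, and an asterisk marks the probe that stands for the gene. Both Ovol1 probes and the second Cebpa probe, A_52_P168567, have all red marks to the right of the blue ones, and the first Cebpa probe, A_51_P214087, has a single red mark far to the left, Anakinra 3.

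The plot of all probes by array shows a wider spread in Anakinra than in PBS at most main probes, though not those of Grhl1 and Ovol1. Of the further probes, A_52_P441954 of Ovol1, A_52_P54463 of Klf5 and A_52_P338796 of Trp63 varied less in Anakinra. The others, among them A_51_P273213 of Grhl1, varied more. The median standard deviation of the 9 factors was 0.173 in Anakinra and 0.0602 in PBS on the log2 scale, and 7 of the 9 varied more in Anakinra. Over all genes the medians were 0.175 and 0.0953, and 80.5% of genes varied more in Anakinra. The arrays lay on 2 slides, with Anakinra 1, PBS 2 and PBS 3 on the first and Anakinra 2, Anakinra 3 and PBS 1 on the second. Within slides, 4 of the 9 factors kept 1 sign on both (Grhl1, Gata3 and Ovol1 positive, Trp63 negative), and 5 had opposite signs (Grhl2, Klf4, Klf5, Cebpa and Cebpb).

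Trp63, the basal regulator, did not pass the test. Its main probe, A_51_P216550, at chr16:25807275-25807334 of mouse build mm8, the build of the array design, had levels of 2.71, 2.56 and 2.91 in Anakinra cultures 1, 2 and 3, against 2.84, 2.86 and 2.79 in PBS cultures 1, 2 and 3. Anakinra 2 was the lowest and Anakinra 3 the highest of all 6, so the PBS values lay inside the Anakinra range. The log2 change was -0.11 ± 0.10 (SE, 3 cultures in each group; limma adjusted p = 0.679). Its 95% confidence interval ran from -0.37 to 0.15, from 1.29-fold lower to 1.11-fold higher. The other probes, A_52_P17264 and A_52_P338796, were at 0.05 ± 0.13 (adjusted p = 0.924) and 0.42 ± 0.25 (adjusted p = 0.529). On the last probe PBS 3 was above all Anakinra arrays, which were above PBS 1 and PBS 2. That probe was dim, with processed signals of 26.2 to 55.0.

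The grainyhead-like factors are relatives of grainyhead, a regulator of the cuticle in flies. Grhl1, which in mice supports desmosomal cadherin expression, was measured on chromosome 12. Its main probe, A_52_P159276, stood at 3.01, 3.01 and 3.01 in Anakinra, against 2.91, 2.79 and 2.88 in PBS. All Anakinra arrays were above all PBS arrays, and they were almost equal to each other. The change of 0.15 ± 0.06 did not pass (adjusted p = 0.329, interval from -0.01 to 0.30), and it was 0.18 within slide 1 and 0.10 within slide 2. The other Grhl1 probe, A_51_P273213, was at 0.21 ± 0.16 (adjusted p = 0.603), with overlapping groups.

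Grhl2, which holds epithelial junction genes active, had 3 probes along its gene on chromosome 15. The main one, A_51_P362328, had levels of 1.36, 1.14 and 1.41 in Anakinra, against 1.30, 1.37 and 1.32 in PBS, a change of -0.03 ± 0.09 (adjusted p = 0.929, interval from -0.26 to 0.20). A_51_P408821 was at -0.01 ± 0.27 (adjusted p = 0.993), where Anakinra 2 was the highest and Anakinra 3 the lowest array. The third, A_52_P373982, had levels of -2.62, -2.63 and -2.85 in Anakinra, against -2.37, -2.49 and -2.47 in PBS. It was the only one of the 18 probes whose Anakinra values were all below the PBS values, and at -0.26 ± 0.09 it did not pass (adjusted p = 0.312). This probe was dim, with processed signals of 148.1 to 181.5.

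The Krüppel-like factors had changes near 0 at their main probes. Klf4, required in mice for the outer barrier, had levels of 5.35, 5.44 and 5.14 in Anakinra, against 5.39, 5.22 and 5.20 in PBS, with a change of 0.04 ± 0.11 (adjusted p = 0.919, interval from 1.17-fold lower to 1.24-fold higher). Klf5 at its main probe, A_51_P507290, had 4.37, 4.22 and 4.02 in Anakinra, against 4.25, 4.17 and 4.17 in PBS, with a change of 0.01 ± 0.10 (adjusted p = 0.983, interval from -0.25 to 0.27). In both genes the groups overlapped, and Anakinra 3 was the lowest array.

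A second, dim Klf5 probe gave other values. Its processed signals were 76.9 to 190.5, against 16401 to 20692 for the main probe. A_52_P54463 lies at chr14:98188052-98188111 of mm8, within the span of 98186571 to 98196303 that the design gives for the main probe. The 9733 bases of that span run from the first to the last position given for the main probe, and do not show which bases it covers. The second probe spans 60 bases. The second probe had levels of -2.81, -2.51 and -2.58 in Anakinra, against -3.49, -3.22 and -2.95 in PBS, all Anakinra arrays above all PBS arrays. Its change of 0.58 ± 0.17 did not pass (adjusted p = 0.224), and it was 0.27 within slide 1 and 0.94 within slide 2.

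The C/EBP genes encode leucine zipper factors of the suprabasal layers, and C/EBP beta was first described as a nuclear factor of IL-6 expression in inflammation. Both are known to act on the gene of keratin 10, the first keratin of the suprabasal cell, whose mRNA differed between the cultures as given further on. The sequences at the starts of the 3 genes are shown for that reason, from 250 bases before to 30 bases after the start in the RefSeq annotation of GRCm38.p6, 5′ to 3′ on the gene's strand. Capitals mark TATAAA and, in Krt10, a match to the C/EBP core TTGCNNAA (N is any base), found on the opposite strand. They lie at chr7:35119043-35119322 on the plus strand for Cebpa, chr2:167688665-167688944 on the plus strand for Cebpb and chr11:99389335-99389614 on the minus strand for Krt10.
Cebpa: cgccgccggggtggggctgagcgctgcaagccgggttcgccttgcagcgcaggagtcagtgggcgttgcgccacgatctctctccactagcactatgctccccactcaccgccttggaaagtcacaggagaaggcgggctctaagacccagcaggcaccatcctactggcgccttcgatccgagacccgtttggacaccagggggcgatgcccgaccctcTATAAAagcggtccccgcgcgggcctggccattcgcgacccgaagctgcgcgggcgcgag
Cebpb: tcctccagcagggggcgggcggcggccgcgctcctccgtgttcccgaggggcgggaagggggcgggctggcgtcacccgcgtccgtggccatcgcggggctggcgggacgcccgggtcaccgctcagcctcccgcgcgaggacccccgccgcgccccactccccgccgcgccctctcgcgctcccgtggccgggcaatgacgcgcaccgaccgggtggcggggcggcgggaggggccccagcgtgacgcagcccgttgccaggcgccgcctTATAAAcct
Krt10: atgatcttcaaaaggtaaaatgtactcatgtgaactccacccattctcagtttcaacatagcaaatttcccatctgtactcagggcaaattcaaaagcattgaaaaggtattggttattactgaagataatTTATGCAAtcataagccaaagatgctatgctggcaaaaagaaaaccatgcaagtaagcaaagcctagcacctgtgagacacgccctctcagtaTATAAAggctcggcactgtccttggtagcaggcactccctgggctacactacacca

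The TATAAA began at -30 in Cebpa and at -26 in Krt10, and at +22 in Cebpb, that is after the annotated start. TATAAA is found on either strand in 13.6% of the 32851 RefSeq promoter windows of 300 bases. The C/EBP core began at -119 in Krt10 and had no match in either C/EBP promoter, against 10.8% of all windows with one. Cebpb held 5 matches to the GC box GGGCGG, found in 35.7% of all windows, and Cebpa held 0. Promoter entries were present for 6 of the factors (Cebpa, Cebpb, Gata3, Grhl1 with 2 starts, Grhl3 and Klf4). None of those 7 windows held GGANTTTCC, a form of the NF-kB motif found in 1.25% of all windows, the AP-1 motif TGANTCA, found in 7.81%, or the grainyhead motif AACNGGTT, found in 2.09%, on either strand. These are matches of letters in short windows and say nothing of binding.

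The 2 probes of Cebpa parted on 1 array. The main probe, A_51_P214087, at chr7:34829102-34829161 of mm8, had levels of 1.09, 1.40 and -0.06 in Anakinra, against 0.73, 0.68 and 0.75 in PBS. Anakinra 1 and 2 were above all PBS arrays and Anakinra 3 was far below them. The change was 0.09 ± 0.39 (adjusted p = 0.954), and the interval from -0.89 to 1.07 is the widest of the 9 factors. Within slide 1 the change was 0.38 and within slide 2, which holds Anakinra 3, it was -0.06.

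The other Cebpa probe, A_52_P168567, lies further along the same gene at chr7:34830258-34830317. It had levels of 1.03, 0.84 and 0.998 in Anakinra, against 0.48, 0.53 and 0.59 in PBS. Here all Anakinra arrays, Anakinra 3 among them, were above all PBS arrays. The change was 0.42 ± 0.08, or 1.34-fold, and did not pass (adjusted p = 0.107, interval from 0.22 to 0.63), at 0.47 within slide 1 and 0.44 within slide 2. The low spot of the main probe on Anakinra 3 carried no flag, was read from 64 pixels with a pixel SD of 15.6% of its mean, and had a processed signal of 1022. Without Anakinra 3, the main probe was at 0.53 (adjusted p = 0.153).

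Cebpb had overlapping groups at both probes. A_52_P63553 had levels of 4.52, 4.67 and 4.05 in Anakinra, against 4.57, 4.47 and 4.40 in PBS, a change of -0.07 ± 0.17 (adjusted p = 0.910, interval from -0.50 to 0.37). A_52_P605846 had 4.20, 4.49 and 3.87 in Anakinra, against 4.79, 4.36 and 4.37 in PBS, a change of -0.32 ± 0.21 (adjusted p = 0.559). Anakinra 3 was the lowest array at both probes, and the highest was Anakinra 2 at the first and PBS 1 at the second.

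**Figure D2:**
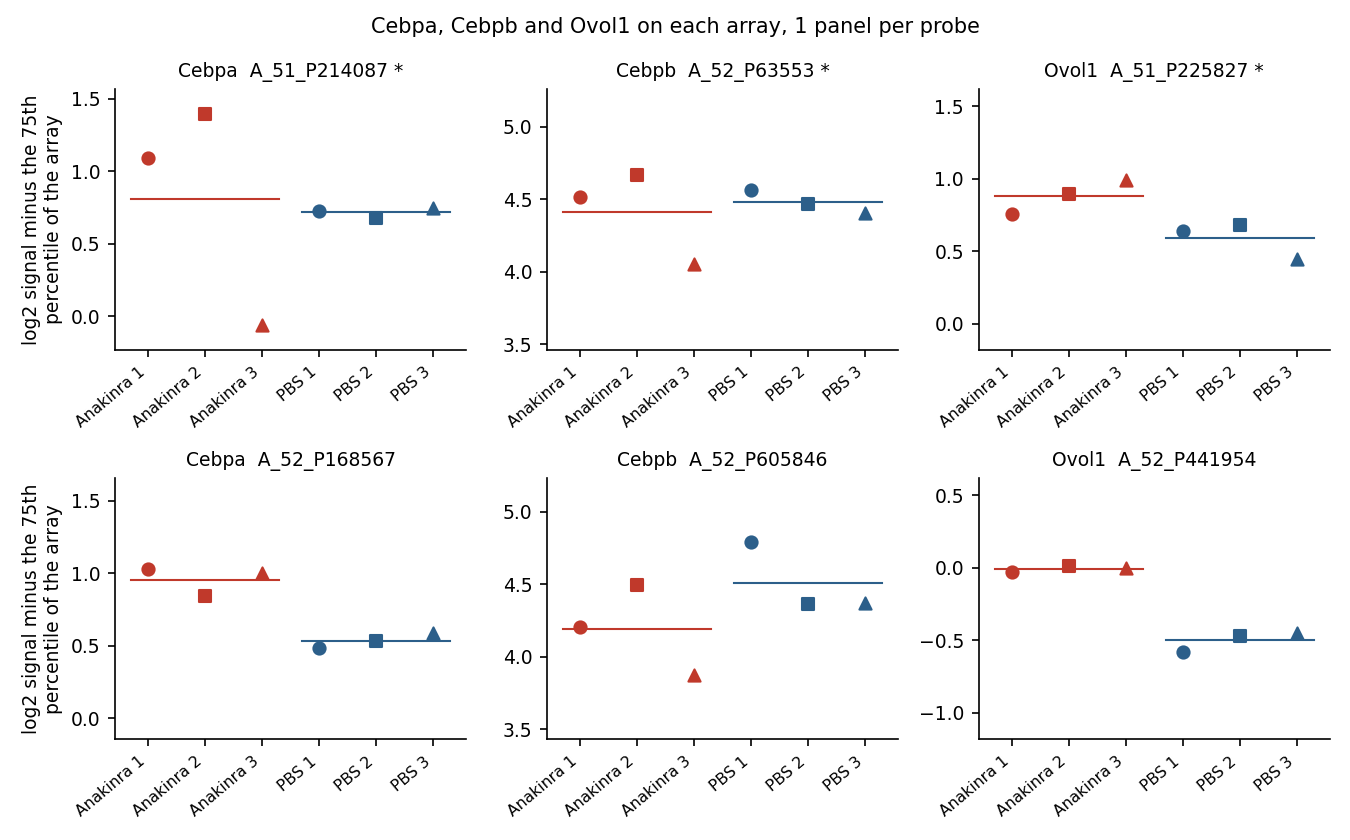
Scaled log2 signal of the 2 probes each of Cebpa, Cebpb and Ovol1 on the 3 Anakinra arrays (red) and the 3 PBS arrays (blue), with a horizontal line at each group's mean; each panel has its own range of levels and the same height in log2 units. The main Cebpa probe (top left) has Anakinra 3 at -0.06, while the other Cebpa probe and both Ovol1 probes have every Anakinra array above every PBS array.

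Gata3, a zinc finger factor of the hair follicle and the barrier, was measured by 1 probe on chromosome 2. Its levels were 1.62, 1.34 and 2.04 in Anakinra, against 1.22, 1.50 and 1.38 in PBS. Anakinra 3 was the highest array and Anakinra 2 lay within the PBS range. The change of 0.30 ± 0.20 did not pass (adjusted p = 0.533, interval from -0.20 to 0.80). It was 0.18 within slide 1 and 0.47 within slide 2.

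Ovol1 came nearest to the threshold, and both of its probes, on chromosome 19, had every Anakinra array above every PBS array. The main probe, A_51_P225827, had levels of 0.76, 0.90 and 0.99 in Anakinra, against 0.64, 0.68 and 0.45 in PBS. The change was 0.29 ± 0.10, or 1.22-fold (limma adjusted p = 0.258, interval from 0.03 to 0.54), at 0.19 within slide 1 and 0.30 within slide 2. The other probe, A_52_P441954, had levels of -0.03, 0.01 and -0.00 in Anakinra, against -0.58, -0.47 and -0.45 in PBS. The difference was far larger than the spread of either group. It was 0.49 ± 0.07, or 1.41-fold, with an adjusted p = 0.051 over all probes, at 0.43 within slide 1 and 0.58 within slide 2. Among the 13 alternatives tried it passed only with quantile normalization (adjusted p = 0.049), and a fit with slide as a term gave an adjusted p = 0.160.

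**Figure D3:**
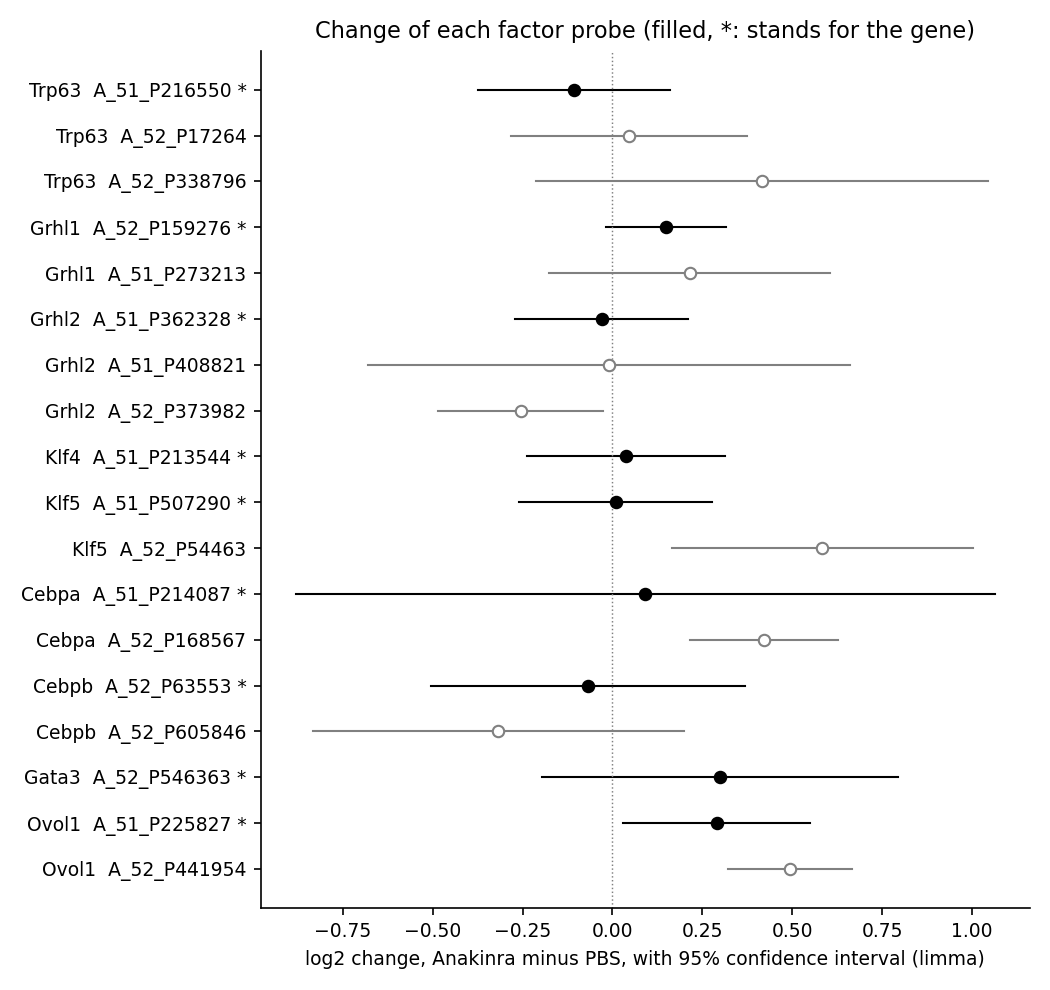
Log2 change, Anakinra minus PBS, of each of the 18 probes with its 95% confidence interval from the limma fit over all probes; filled marks stand for the gene. The intervals of 5 of the 18 probes exclude 0 (both Ovol1 probes and 1 further probe each of Cebpa, Klf5 and Grhl2), and no probe passed the adjusted threshold.

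The plot of changes with their intervals places the 9 factors beside each other. Among the main probes Cebpa has the longest line and Grhl1 the shortest. These signs are relative to the 75th percentile of each array. With the array median as the level of reference the median change of all genes moved by more than 0.1, to -0.32, and Grhl1, Klf4, Klf5, Cebpa, Gata3 and Ovol1 took a negative sign (-0.04 for Ovol1). Relative to that shift Ovol1 was at 0.28, Gata3 at 0.29 and Grhl1 at 0.14.

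Other transcription factors of the epidermis changed in a few cases. Of 40 listed, 38 were tested. The test called 3 higher and 1 lower and left 34, and the median change was 0.08 against 0.01 over all genes. The homeobox factor Barx2 rose, with levels of 2.20, 2.23 and 2.47 in Anakinra, against 1.59, 1.59 and 1.56 in PBS (0.72 ± 0.09, adjusted p = 0.032). The nuclear receptor Rora rose, at 1.46, 1.46 and 1.24 in Anakinra, against 0.76, 0.59 and 0.75 in PBS (0.68 ± 0.10, adjusted p = 0.041). The homeobox factor Dlx3, a regulator of late differentiation, rose as well, at -3.02, -2.94 and -2.84 in Anakinra, against -3.96, -4.09 and -3.63 in PBS (0.96 ± 0.14, adjusted p = 0.045). All Anakinra arrays lay above all PBS arrays for each of the 3, as for 12.5% of all genes. The 3 were named for their small p, so this separation adds no further support. The Dlx3 probe was dim, with levels from -4.09 to -2.84. The call of Dlx3 was lost with normexp background correction (0.46, adjusted p = 0.058), quantile normalization (0.56, adjusted p = 0.402) and array weights (0.95, adjusted p = 0.104). It was also lost with the authors' deposited values (adjusted p = 0.059) and with each probe on its own (adjusted p = 0.057). Barx2 was lost with the deposited values (adjusted p = 0.053), and Rora with each probe on its own (adjusted p = 0.055). All 3 calls were lost with array medians, no filter on dim probes and the replicate block.

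The factor that fell was Ehf, an ETS factor of epithelia. Its levels were 0.73, 0.65 and 0.58 in Anakinra, against 1.27, 1.38 and 1.20 in PBS (-0.63 ± 0.08, adjusted p = 0.031). The call of Ehf was lost with array medians (adjusted p = 0.868) and no filter on dim probes (adjusted p = 0.162). It was also lost with the replicate block (adjusted p = 0.241) and array weights (adjusted p = 0.0501). Cebpd, the acute-phase relative of Cebpa and Cebpb, was chosen after its values were seen. It stood at 2.03, 2.23 and 1.75 in Anakinra, against 2.95, 2.86 and 2.80 in PBS, with all Anakinra arrays lower, and its change of -0.87 ± 0.14 did not pass (adjusted p = 0.058). Within slides 1 and 2 the changes were 0.62 and 0.76 for Barx2, 0.79 and 0.59 for Rora, 0.84 and 1.07 for Dlx3, and -0.56 and -0.66 for Ehf. A fit with slide as a term called none of these 4 (adjusted p = 0.119, 0.145, 0.158 and 0.115 in that order). With 1 array left out, Barx2 passed only without Anakinra 3 (adjusted p = 0.046) and the other 3 in no case, at adjusted p-values from 0.054 to 0.258 for Rora, 0.058 to 0.243 for Dlx3 and 0.068 to 0.220 for Ehf.

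Genes of the suprabasal and outer layers, from the first suprabasal keratins to the proteins of the cornified surface, rose in part. Of 40 listed, 36 were tested. The test called 14 higher and 0 lower and left 22, and the median change was 0.51. The calmodulin-like gene Calm5, a calcium sensor of the epidermis, rose by 2.53 ± 0.17 (adjusted p = 0.007), the keratin Krt1 by 2.35 ± 0.19 (adjusted p = 0.011), and the desmosomal cadherins Dsg1a and Dsc1 by 1.78 ± 0.15 and 1.23 ± 0.11 (adjusted p = 0.012 for each). Krt10, whose start is printed above and which was chosen after its values were seen, had levels of 3.75, 4.00 and 3.17 in Anakinra, against 1.38, 0.93 and 1.43 in PBS. All Anakinra arrays were far above all PBS arrays (2.40 ± 0.26, or 5.27-fold, adjusted p = 0.021; 2.58 within slide 1 and 2.21 within slide 2). A fit with slide as a term called 1, Calm5, and left Krt1, Dsg1a, Dsc1 and Krt10 at adjusted p-values of 0.060, 0.065, 0.065 and 0.094. Leaving out PBS 1 or PBS 2 gave 0 calls, Anakinra 1 gave 1, PBS 3 gave 3, and Anakinra 2 or Anakinra 3 gave 8.

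Genes of the basal layer did not pass in either direction. All 19 listed were tested, and the test called 0 higher and 0 lower. An unadjusted p under 0.05 was found for 4, and for 16.1% of all genes. The median change was 0.09. The Notch ligand gene Jag2 had the smallest p, at -0.43 ± 0.10 (adjusted p = 0.131), and Perp, a p63 target of desmosomes, was next at 0.22 ± 0.08 (adjusted p = 0.262). A list of 12 epithelial genes linked to GRHL2 holds junction and surface protein genes along with Grhl2 itself, the factor Ovol2, counted among the other factors too, and the splicing regulators Esrp1 and Esrp2. All were tested, 0 were called higher and 1 lower, with a median of -0.05, or -0.09 over the 8 without those 4. The gene that fell, the tight junction component Cldn7, had levels of 3.30, 2.98 and 3.18 in Anakinra, against 3.96, 4.09 and 3.90 in PBS (-0.83 ± 0.11, adjusted p = 0.034). It was at -0.70 within slide 1 and -0.89 within slide 2. The call was lost in a fit with slide as a term (adjusted p = 0.115) and with any 1 array left out (adjusted p from 0.050 to 0.243).

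**Figure D4:**
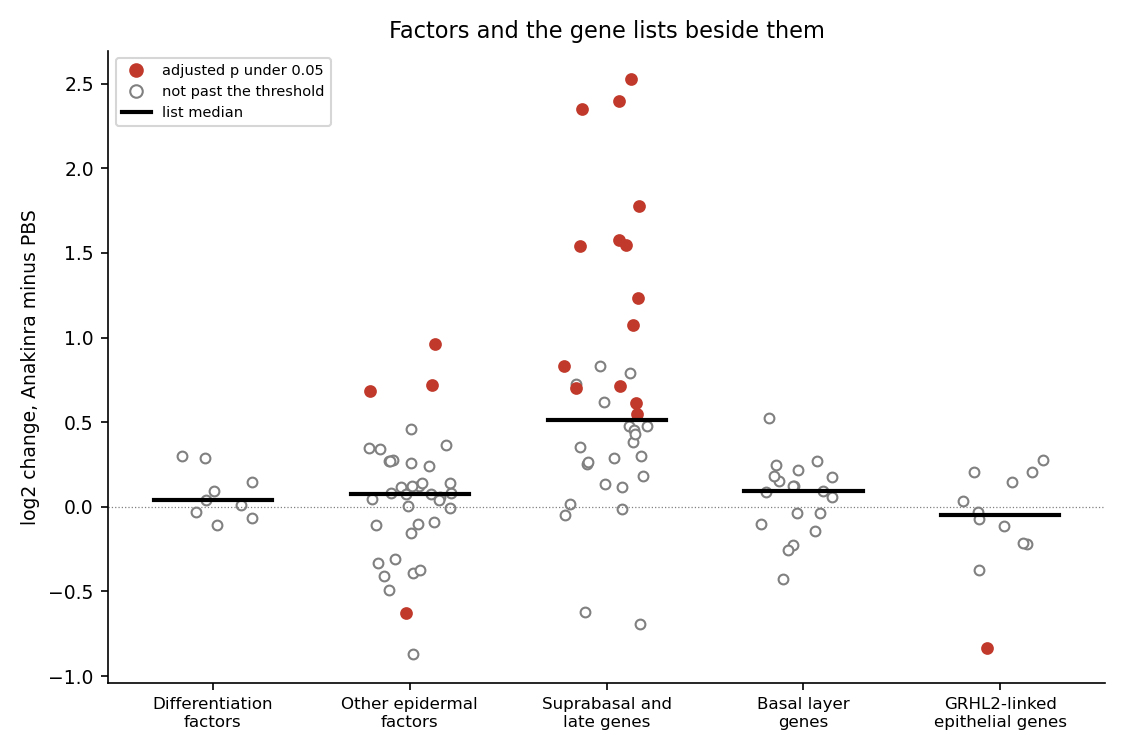
Log2 change, Anakinra minus PBS, of each tested gene of 5 lists (9 differentiation factors, 38 other epidermal factors, 36 suprabasal and late genes, 19 basal genes and 12 epithelial genes linked to GRHL2, with Grhl2 and Ovol2 each in 2 lists); filled red marks passed the adjusted threshold, and black bars are list medians. The differentiation factors lie between -0.11 and 0.30 with no filled mark, and the suprabasal and late genes have 14, from 0.55 upward.

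The comparison of the 5 lists, at 1 probe a gene, shows the factors between -0.11 and 0.30 beside a suprabasal and late list whose median is 0.51. Further probes of the factors ran from -0.32 for Cebpb to 0.58 for Klf5, with 0.49 for Ovol1 and 0.42 for Cebpa. No test of the difference between lists was made. All 12 keratinocyte markers were above background on all arrays, and 2 rose, Krt1 and Krt10, with a mean level of 5.87 to 6.002 in Anakinra and 5.35 to 5.51 in PBS. The other 10 had changes from -0.14 to 0.37 and a mean level of 6.399 to 6.48 in Anakinra and 6.25 to 6.35 in PBS. Of 10 fibroblast markers all were tested and 2 rose, with a mean level of -0.93 to -0.64 in Anakinra and -1.37 to -1.17 in PBS. Of 9 melanocyte markers 0 passed, at 0.73 to 0.95 in Anakinra and 0.48 to 0.69 in PBS. Of 10 hair follicle markers 8 were tested and 1 rose, at 0.88 to 1.20 in Anakinra and 0.88 to 0.97 in PBS. Of 9 immune, 6 endothelial and 6 adipocyte markers, 4, 4 and 3 were tested and 0 passed. The part of these cell types in the changes was not tested.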

How the data were processed

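RNA of 3 Anakinra and 3 PBS cultures was measured on 1-channel Agilent arrays. Per the file headers, Feature Extraction 9.5.3.1 gave each spot a processed intensity that the authors' scanner software had corrected for background and spatial trend within the array. The deposited log2 table of the authors differed from log2 of that intensity only by a constant for each array (to within 0.001), whose origin no source used here states.

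Each array's log2 intensity was set to 0 at its 75th percentile. Control and outlier-flagged spots were dropped and repeat spots averaged. A probe was kept where all arrays of 1 group or both read it well above background and each group had at least 2 values; of a gene's kept probes, the one with the highest mean signal represented it. Names came from the files, updated through RefSeq tables of GRCm38.p6. Probe positions are on mm8.

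Groups came from the treatment label. Anakinra was compared with PBS in limma 3.58.1 under R 4.3.3 (lmFit, eBayes, two-sided), adjusted by Benjamini-Hochberg over 16494 genes, or over 25012 probes for the further probes; ± is the standard error and intervals are at 95%. The fit was run on simulated data with equal spread in both groups and larger changes than the factors had. Those data do not show how it performs with the unequal spread seen here. All 10 factors and all their probes were named; from each other list, up to 4 called genes with the smallest p, or 2 genes where none was called, with exceptions said in the text. The factors, lists and tests were chosen with earlier results of these data known. Alternatives were other scalings, background corrections and filters, slide or replicate as a block, array weights and leaving out each array. The number of arrays limits the precision.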

Additional observations from a re-analysis of the deposited data

How the results depend on the processing

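No factor was past the threshold under any of 144 alternative fits, 16 for each of the 9, and the counts of factors called were 0 in each direction throughout. These fits share the same arrays, and some could call few genes of any kind. The replicate block called none, and leaving out 1 array gave as few as 1 gene higher or 7 lower. Fits that only tested another set of probes left each factor's change as it was. Among the further probes, A_52_P441954 of Ovol1 passed with quantile normalization (limma adjusted p = 0.049). Array medians and the deposited values each added nearly 1 constant to every change, and each factor's change relative to the median of all genes moved by no more than 0.001. With array medians Grhl1 was at -0.18, Klf4 at -0.29, Klf5 at -0.32, Ovol1 at -0.040, Cebpa at -0.24 and Gata3 at -0.030, while the median of all genes was at -0.32; A_51_P273213 of Grhl1 was at -0.12, A_52_P17264 of Trp63 at -0.28 and Perp at -0.11. With deposited values Grhl2 was at 0.027 and its probe A_51_P408821 at 0.047. With normexp background correction Klf5 was at -0.019. With quantile normalization Cebpb was at 0.0095, A_52_P17264 of Trp63 at -0.020 and A_52_P338796 of Trp63 at -0.23. The cause of the reversals under normexp and quantile normalization was not tested. Leaving out each array in turn turned the sign of some small changes, with ranges of -0.085 to 0.053 for Grhl2, -0.027 to 0.12 for Klf4, -0.072 to 0.10 for Klf5, -0.050 to 0.53 for Cebpa, -0.19 to 0.11 for Cebpb, -0.29 to 0.21 for A_51_P408821 of Grhl2 and -0.071 to 0.13 for A_52_P17264 of Trp63. The probes of Cebpa were so close in mean signal that A_52_P168567 represented the gene without any 1 PBS array (0.40, 0.42 and 0.45) and without Anakinra 2 (0.48, adjusted p = 0.072).

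Over all genes, 160 were higher and 132 lower. The counts were 8 and 49 with array medians, 7 and 29 with no filter on dim probes, 338 and 240 with probes above background on all 6 arrays, and 18 and 35 with slide as a block. Of the other epidermal factors, 3 higher and 1 lower, the counts were 1 and 1 with each probe on its own, 1 and 2 with deposited values, 3 and 2 with probes above background on all 6 arrays, and 0 and 0 with array medians, no filter or slide as a block. Of the suprabasal and late genes, 3 were higher with array medians, 1 with no filter and 1 with slide as a block, and 1 was lower with normexp or with probes above background on all 6 arrays. The lower GRHL2-linked genes numbered 0 with array medians, no filter or slide as a block.

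The labels do not say whether replicate numbers pair the cultures. Deviations of same-numbered cultures from their group means correlated at 0.41, -0.49 and -0.21 over 16404 genes. Those of differently numbered cultures correlated at -0.67 to 0.70. With group means taken over 3 arrays each, these values cannot decide whether the cultures were paired. With the replicate block 0 genes were called in either direction, and so 0 in every list. Leaving out each array in turn gave 1 to 97 genes higher and 7 to 137 lower, 0 to 1 other factor higher and 0 to 1 lower, 0 to 8 suprabasal and late genes higher, and 0 GRHL2-linked genes lower.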
